A study of Mus musculus with 31 samples.

Results

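Mapt, Prnp and Lamr1-ps1 are 3 of the 48795 genes in the hippocampal count table, and they were selected on their read counts, which were higher in P301S than in non-transgenic (Ntg) hippocampi. Mapt encodes the microtubule-associated protein tau, Prnp encodes the prion protein, and Lamr1-ps1 is a processed pseudogene of Rpsa, which encodes a protein of the small ribosomal subunit that is also known as the laminin receptor. Bulk RNA-seq was carried out on hippocampi of 7 Ntg mice, of which 4 were male, and of 6 P301S mice, of which 3 were male, all aged 8 to 9 months. The second data set comprised primary mouse microglia, wild type (Cgas+/+) or knocked out for Cgas (Cgas-/-), treated for 6 h with vehicle, tau fibrils at 2 µg/ml or the DNA HT-DNA, a cGAS ligand, at 1 µg/ml, with 3 libraries in each of the 6 groups. The breeding described for the study included Cgas-/- mice, and the labels do not give the Cgas genotype of the hippocampal donors. Libraries held 25953296 to 35779977 counts in hippocampi and 17037459 to 25174764 in microglia. The study describes its triplicate microglial RNA-seq samples as biologically independent, and the labels do not say which culture each library came from.

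The P301S line carries a human tau cDNA with the P301S substitution under the promoter of the mouse prion protein gene, a promoter used to drive transgenes in neurons and other brain cells. Tau binds and stabilises microtubules in axons, and its aggregates mark tauopathies. The prion protein is a membrane-anchored glycoprotein that is abundant in neurons. A count per mouse gene does not tell reads of the transgene apart from reads of the endogenous gene, so levels of Mapt and Prnp below are sums of whatever was counted to each gene.

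In GRCm38, Mapt (ENSMUSG00000018411) spans chr11:104231390-104332090 on the plus strand. Prnp (ENSMUSG00000079037) spans chr2:131909928-131938429 and Lamr1-ps1 (ENSMUSG00000081229) spans chr2:131904086-131904959, both on the plus strand. Lamr1-ps1 ended 4968 bases before the annotated start of Prnp. The 250 bases before that start, chr2:131909678-131909927, are shown because this is the endogenous counterpart of the promoter that drives the transgene (RefSeq, GRCm38.p6). Capitals mark the GC-box letters GGGCGG or, on the other strand, CCGCCC.
Prnp: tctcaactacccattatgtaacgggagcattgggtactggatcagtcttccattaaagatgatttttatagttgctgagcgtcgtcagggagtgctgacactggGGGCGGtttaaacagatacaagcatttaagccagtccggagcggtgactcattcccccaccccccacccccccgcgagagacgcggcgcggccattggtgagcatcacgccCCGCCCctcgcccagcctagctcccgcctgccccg
Both orientations were found, 1 time each. The same letters were present in 32.7% of 32851 windows of this length before annotated gene starts, so the match describes the window and nothing more.

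The sequence of Lamr1-ps1 was compared with that of Rpsa, since reads of a pseudogene can be confused with those of its parent. Of 839 aligned bases, 653 (77.8%) were identical and 186 differed, with 69 gap positions, and the aligned bases all lay in the coding part of Rpsa. None of the 825 windows of 50 bases in the pseudogene was present, on either strand, in a transcript annotated for another gene. The longest stretch of the alignment without a gap, 105 bases of which 29 differed, is shown for chr2:131904177-131904281 and the matching Rpsa bases, with the differing bases in capitals.
Lamr1-ps1: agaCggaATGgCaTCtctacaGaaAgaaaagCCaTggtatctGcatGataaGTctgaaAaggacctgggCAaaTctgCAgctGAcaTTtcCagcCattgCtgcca
Rpsa: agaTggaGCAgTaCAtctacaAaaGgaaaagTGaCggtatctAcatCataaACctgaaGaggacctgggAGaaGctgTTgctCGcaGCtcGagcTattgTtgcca

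Mapt was higher in all 6 P301S mice than in any Ntg mouse. Its level ranged from 519 to 642 CPM in Ntg mice, with a median of 565 CPM. In P301S mice it was 974 CPM in mouse 29, 1009 in mouse 36, 970 in mouse 43, 1125 in mouse 63, 858 in mouse 65 and 1045 in mouse 77. The lowest P301S mouse stood 1.34-fold above the highest Ntg mouse. The means were 572 ± 46.9 CPM (SD, n = 7) and 997 ± 88.5 CPM (SD, n = 6), a log2 fold change of 0.80 (SE 0.07).

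Prnp was also higher in every P301S mouse. Ntg mice ranged from 1086 to 1296 CPM with a median of 1170 CPM. P301S mice had 1877 CPM (mouse 29), 2677 (mouse 36), 2157 (mouse 43), 2230 (mouse 63), 2537 (mouse 65) and 2343 (mouse 77). Mouse 29, the lowest, was still 1.45-fold above the highest Ntg mouse. The means were 1184 ± 73.6 CPM (SD, n = 7) and 2303 ± 284 CPM (SD, n = 6), a log2 fold change of 0.96 (SE 0.08).

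Lamr1-ps1 was close to silent in Ntg hippocampi and counted in every P301S hippocampus. Ntg libraries held 0 or 1 read each, 5 reads in all. P301S libraries held 95 reads in mouse 29, 62 in mouse 36, 61 in mouse 43, 108 in mouse 63, 67 in mouse 65 and 119 in mouse 77, a mean of 2.82 ± 0.636 CPM (SD, n = 6). Set against a floor of 3 reads per Ntg library, this level was at least 27.4-fold higher in P301S mice. All 3 genes passed the filter on low counts, Lamr1-ps1 through its P301S libraries alone. Every P301S mouse exceeded every Ntg mouse in 72 of 16453 tested genes (0.438%), and 217 genes (1.32%) were called higher, which required a log2 fold change over 0.5 besides an adjusted p under 0.05. These comparisons chose the 3 genes and are no test of them. In bulk tissue, a change in the number of cells of a type and a change in RNA per cell cannot be told apart.

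**Figure D1:**
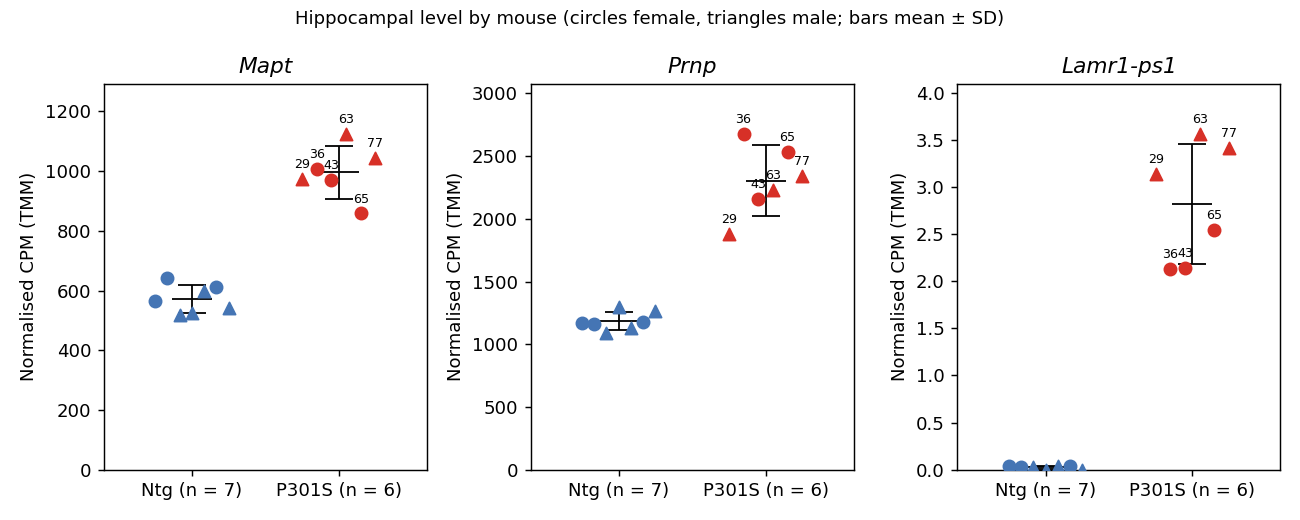
TMM-normalised CPM of Mapt, Prnp and Lamr1-ps1 in each hippocampus of 7 Ntg and 6 P301S mice, with circles for females, triangles for males and bars for the mean ± SD; P301S mice are numbered. P301S mice lie above all Ntg mice for each gene, at 858 to 1125 CPM for Mapt and 1877 to 2677 CPM for Prnp.

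The P301S mice did not rank alike for the 3 genes. By CPM, mouse 63 had the highest Mapt and Lamr1-ps1, mouse 36 had the highest Prnp and the lowest Lamr1-ps1, and mouse 65 had the lowest Mapt with the next to highest Prnp. The coefficient of variation among P301S mice was 8.88% for Mapt, 12.3% for Prnp and 22.6% for Lamr1-ps1. Above the Ntg mean, Mapt gained 286 to 553 CPM and Prnp gained 694 to 1493 CPM. The Prnp gain divided by the Mapt gain was 1.72 in mouse 29 and 4.72 in mouse 65, with a mean of 2.78 ± 1.12 (SD, n = 6). Across the 6 P301S mice, Pearson's r was -0.16 for Mapt and Prnp (rho 0.03, exact permutation p = 0.778 and 1), 0.53 for Mapt and Lamr1-ps1 (rho 0.60, exact permutation p = 0.294 and 0.242) and -0.42 for Prnp and Lamr1-ps1 (rho -0.37, exact permutation p = 0.404 and 0.497). Without the 2 mice farthest from the median of the first gene, r was 0.60, 0.44 and 0.05, so 2 of the 3 signs rested on those mice. With 6 mice, relations of this size could not be told from none. In the 7 Ntg mice, r was -0.25 for Mapt and Prnp (rho -0.07, exact permutation p = 0.559 and 0.906; -0.87 without the 2 farthest mice).

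Other genes with the same near-absent level in Ntg mice were few. Besides Lamr1-ps1, only Gbp2b and 4930590L14Rik had 3 counts or fewer in every Ntg mouse and 10 or more in every P301S mouse. Gbp2b, which encodes an interferon-inducible guanylate-binding protein (chr3:142594847-142619179), had 0 reads in 6 Ntg libraries and 2 reads in mouse 68. Its P301S counts were 182, 135, 28, 63, 216 and 208 in mice 29, 36, 43, 63, 65 and 77, at least 45.1-fold above the floor. The lincRNA 4930590L14Rik (chr3:140951876-140953247) had 0 reads in all 7 Ntg libraries and 16, 15, 27, 44, 13 and 24 reads in the same P301S mice, at least 7.49-fold above the floor. The starts of these genes lay 1.64 Mb apart. Gbp2b was lowest in mice 43 and 63, whereas 4930590L14Rik was highest in those mice and Lamr1-ps1 held its fewest reads (61) in mouse 43 and 108 in mouse 63. The other Gbp genes beside Gbp2b were read in Ntg mice: Gbp3 was called higher (3.39 ± 0.585 CPM, SD, n = 7, against 13.7 ± 8.08, SD, n = 6; adjusted p = 0.0207, edgeR), as were Gbp5 (adjusted p = 0.0303) and Gbp2 (adjusted p = 0.0387), and Gbp7 was not (log2 fold change 1.06, SE 0.30, adjusted p = 0.0825).

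**Figure D2:**
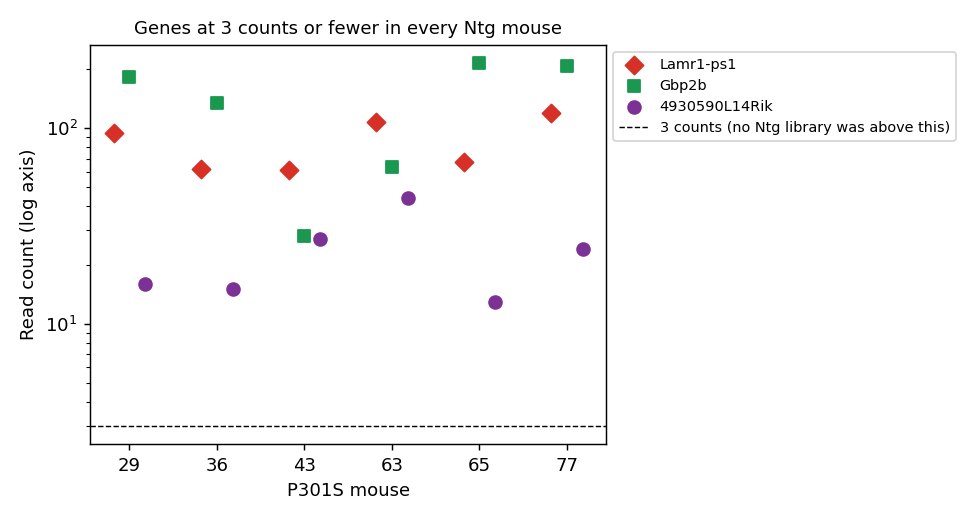
Read counts (log axis) of the 3 genes that had 3 counts or fewer in every Ntg library (dashed line), for each P301S mouse. Lamr1-ps1 held 61 to 119 reads, Gbp2b fell to 28 reads in mouse 43 and 63 in mouse 63, and 4930590L14Rik reached 44 reads in mouse 63.

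Leaving Lamr1-ps1 aside, edgeR called no tested gene next to Mapt or Prnp. Of 20 genes within 5 annotated genes of Mapt, Prnp or Lamr1-ps1, leaving those 3 aside, 8 were tested and 0 were called by edgeR or by DESeq2 (2 at an unadjusted p under 0.05), against 1.36% of all tested genes by edgeR, with log2 fold changes from -0.28 to 0.45, and a count of 0 among so few genes is near that share. The nearest tested genes were Crhr1 (log2 fold change 0.45, adjusted p = 0.347) and Kansl1 (-0.07, adjusted p = 0.613) beside Mapt, and Erv3 (0.28, adjusted p = 0.671) and Rassf2 (0.31, adjusted p = 0.121) beside Prnp and Lamr1-ps1. Prnd, the doppel gene downstream of Prnp, had 0 reads in every library. Within 1 Mb to each side, 0 of 30 other tested genes around Prnp and 0 of 20 around Mapt were called by edgeR (5 and 2 at an unadjusted p under 0.05), and DESeq2 called 1 and 0. The widest values there were those of Adam33 (log2 fold change 1.39, SE 0.47, adjusted p = 0.152) and Lrrn4 (-0.74, SE 0.22, adjusted p = 0.0987), both in the Prnp window, and Lrrn4 was the gene that DESeq2 called (adjusted p = 0.0296). Over all 16453 tested genes, DESeq2 called 531 higher and 52 lower. No share of all tested genes is given for the unadjusted p, so the counts at that level are descriptions.

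**Figure D3:**
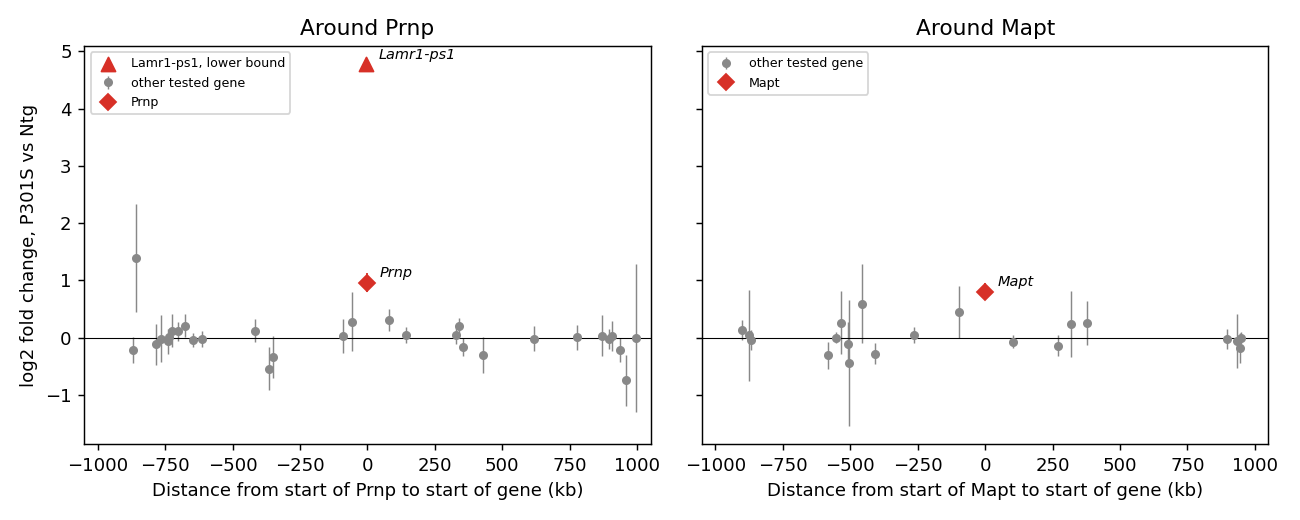
log2 fold change of tested genes in P301S against Ntg hippocampi, by the distance between annotated starts in kb, within 1 Mb of Prnp and of Mapt; bars are 2 standard errors and the triangle is the lower bound for Lamr1-ps1. Mapt (0.80) lies above every other tested gene of its window, whereas Adam33 (1.39, not called) and the bound for Lamr1-ps1 lie above Prnp (0.96); edgeR called none of the grey genes.

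Neither Rpsa nor its other tested copies were called, where 1.36% of all tested genes were. Rpsa was at 254 ± 29.2 CPM (SD, n = 7) in Ntg and 263 ± 36.5 CPM (SD, n = 6) in P301S mice, a log2 fold change of 0.05 (SE 0.10, adjusted p = 0.872, edgeR). Of 9 other Rpsa pseudogenes in the table, 5 were tested and 0 were called by edgeR or DESeq2 (0 at an unadjusted p under 0.05), with at most 44 reads in any mouse. Their log2 fold changes lay between -0.40 (Rpsa-ps10, adjusted p = 0.509) and 0.34 (Rpsa-ps12, adjusted p = 0.734). Among the small ribosomal subunit proteins, 0 of 32 tested genes were called by edgeR or DESeq2, a count near the 1.36% of all tested genes (2 at an unadjusted p under 0.05; median log2 fold change 0.07, against 0.0013 over all tested genes). Rps18 had the smallest p (0.36, adjusted p = 0.132), followed by Rps2 (-0.18, adjusted p = 0.314), Rps9 (0.22, adjusted p = 0.416) and Rps4x (0.16, adjusted p = 0.457). The share of all tested genes at an unadjusted p under 0.05 is not given here.

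Genes that work with tau and with the prion protein were counted next, and neither edgeR nor DESeq2 called any. With 1.36% of all tested genes called by edgeR, a count of 0 in lists of this size is near the background and is no result about them. No share of all tested genes is given for an unadjusted p under 0.05, so counts at that level and their directions are no result either. Of 21 microtubule-associated proteins and tubulins, 0 were called (3 at an unadjusted p under 0.05, all lower; median log2 fold change -0.04). The smallest p belonged to Map2, a dendritic microtubule-associated protein (-0.35, SE 0.12, adjusted p = 0.141), followed by Map1a (-0.23, adjusted p = 0.229), Map1b (-0.28, adjusted p = 0.234) and Tubb2a (-0.17, adjusted p = 0.392). Of 30 tau kinases, phosphatases and chaperones, 0 were called (5 at an unadjusted p under 0.05, of which 4 were lower; median -0.05). Fkbp5, a co-chaperone of Hsp90, had the smallest p (-0.48, SE 0.12, adjusted p = 0.0640), followed by Camk2a, a synaptic kinase (-0.45, adjusted p = 0.132), the co-chaperone Fkbp4 (0.21, adjusted p = 0.224) and the kinase Mark2 (-0.18, adjusted p = 0.272). Of 8 prion protein relatives and partners, 7 were tested and 0 were called (2 at an unadjusted p under 0.05; median -0.01). Sprn, which encodes the prion-like protein Shadoo, was at 288 ± 30.2 CPM (SD, n = 7) in Ntg and 239 ± 17.0 CPM (SD, n = 6) in P301S mice (log2 fold change -0.27, adjusted p = 0.0906), and Grm5, a glutamate receptor, had a log2 fold change of -0.40 (adjusted p = 0.160).

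Neuronal markers, which define the tissue, were abundant in every hippocampus. The counts called in the marker lists of this paragraph stand against 1.36% of all tested genes by edgeR, from which 0 in such short lists cannot be told apart. DESeq2 called 531 genes higher and 52 lower of the same 16453. For an unadjusted p under 0.05 no share of all tested genes is given, so counts at that level are descriptions. The mean level of 11 neuronal markers was 9.31 to 9.51 log2(CPM + 1) in Ntg and 9.15 to 9.49 in P301S mice, and 0 of the 11 were called by edgeR or DESeq2 (2 at an unadjusted p under 0.05, both lower; median log2 fold change -0.08). Markers of choroid plexus, a neighbouring tissue, ranged widely, from 4.30 to 6.28 in Ntg and from 2.67 to 7.12 in P301S mice, with 0 of 5 called by edgeR or DESeq2 (0 at an unadjusted p under 0.05). Endothelial markers stood at 4.68 to 5.08 in Ntg and 4.65 to 4.94 in P301S mice (0 of 4 called by either tool, 0 at an unadjusted p under 0.05). T cell markers stood at 0.55 to 0.90 and 0.68 to 1.75 (0 of 2 tested were called by edgeR, 1 by DESeq2 and 1 at an unadjusted p under 0.05, Trbc2), and the 1 blood marker tested was not called. With the neuron marker mean as a covariate, the log2 fold changes were 0.83 for Mapt, 0.98 for Prnp and a fitted 6.54 for Lamr1-ps1. The part of the other cells in the levels of these 3 genes was not tested.

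Many glial and IFN genes rose in P301S mice, with a wide spread among these mice. Of 17 tested IFN genes, 13 were called higher, against 1.32% of all tested genes (median log2 fold change 2.19, against 0.0013 over all), among them Cxcl10, a chemokine (4.72, SE 0.72, adjusted p = 0.0151), and Irf7, a transcription factor of the IFN response (2.42, SE 0.46, adjusted p = 0.0303). Of 15 markers of disease-associated microglia, 7 were called higher against the same 1.32% (median 1.82), with the integrin gene Itgax at 6.12 (SE 0.87, adjusted p = 0.0102) and Cst7, a cystatin, at 5.90 (SE 0.85, adjusted p = 0.0102). Of 7 tested markers of reactive astrocytes, 5 were called higher against the same 1.32% (median 2.02), including Gfap (2.22, SE 0.37, adjusted p = 0.0206). Of 9 homeostatic microglial, 6 astrocyte and 9 oligodendrocyte markers, edgeR called 0 (4, 4 and 6 at an unadjusted p under 0.05, all higher), and DESeq2 called 3, 2 and 2. Over all 16453 tested genes, DESeq2 called 531 higher and 52 lower, and no share is given for the unadjusted p. The edgeR counts called higher turned on single mice: without Ntg mouse 35 they were 1, 2 and 0 for the IFN, disease-associated microglial and reactive astrocyte lists, and without P301S mouse 43 they were 17, 13 and 7. The count over all tested genes moved likewise, from 217 to 14 without Ntg mouse 35 and to 608 without P301S mouse 43.

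P301S mice 43 and 63 had Mapt, Prnp and Lamr1-ps1 above every Ntg mouse and the lowest levels of these lists among P301S mice. Mouse 43 was next to lowest of the 6 for each of the 3 genes (970, 2157 and 2.14 CPM), and mouse 63 was highest for Mapt and Lamr1-ps1 (1125 and 3.56 CPM), with 2230 CPM of Prnp. The mean level of the IFN genes was 1.58 to 1.92 log2(CPM + 1) in Ntg mice, 1.67 in mouse 43, 1.97 in mouse 63 and 3.15 to 4.21 in the other 4 P301S mice. For the markers of disease-associated microglia it was 3.86 to 4.28 in Ntg mice, 4.03 in mouse 43, 4.53 in mouse 63 and 5.37 to 6.58 in the others. For the markers of reactive astrocytes it was 4.23 to 4.53 in Ntg mice, 4.33 in mouse 43, 5.12 in mouse 63 and 6.19 to 7.01 in the others. Mouse 29, with the highest disease-associated microglial level (6.58), had 974 CPM of Mapt and the lowest Prnp (1877 CPM).

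No relation of the 3 genes with 7 glial, neuronal and IFN lists passed the correction across the 6 P301S mice. Over these 21 relations and the 3 between the genes, r ranged from -0.56 (Mapt with homeostatic microglia) to 0.53, 0 of 24 had an unadjusted exact permutation p under 0.05 by Pearson's r or by Spearman's rho, and the smallest adjusted p was 0.970 by Pearson's r and 1 by Spearman's rho. For Mapt, r was -0.55 with the IFN genes (rho -0.26, exact permutation p = 0.274 and 0.658) and -0.44 with disease-associated microglia (rho -0.14, exact permutation p = 0.403 and 0.803), and without mice 63 and 65 it was 0.69 and 0.16. For Prnp, r was 0.34 with the IFN genes (rho 0.37, exact permutation p = 0.506 and 0.497) and 0.20 with disease-associated microglia (rho 0.14, exact permutation p = 0.689 and 0.803), and without mice 29 and 36 it was 0.950 and 0.996, over 4 mice. For Lamr1-ps1, r was 0.09 with the IFN genes (rho 0.14, exact permutation p = 0.832 and 0.803) and -0.08 with disease-associated microglia (rho -0.20, exact permutation p = 0.849 and 0.714), and without mice 36 and 43 it was -0.77 and -0.73. In 12 of the 24 relations the sign turned when the 2 mice were left out. The largest gap between neighbouring mice was 46.3% of the range, for the IFN genes, with mice 43 and 63 on its lower side.

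**Figure D4:**
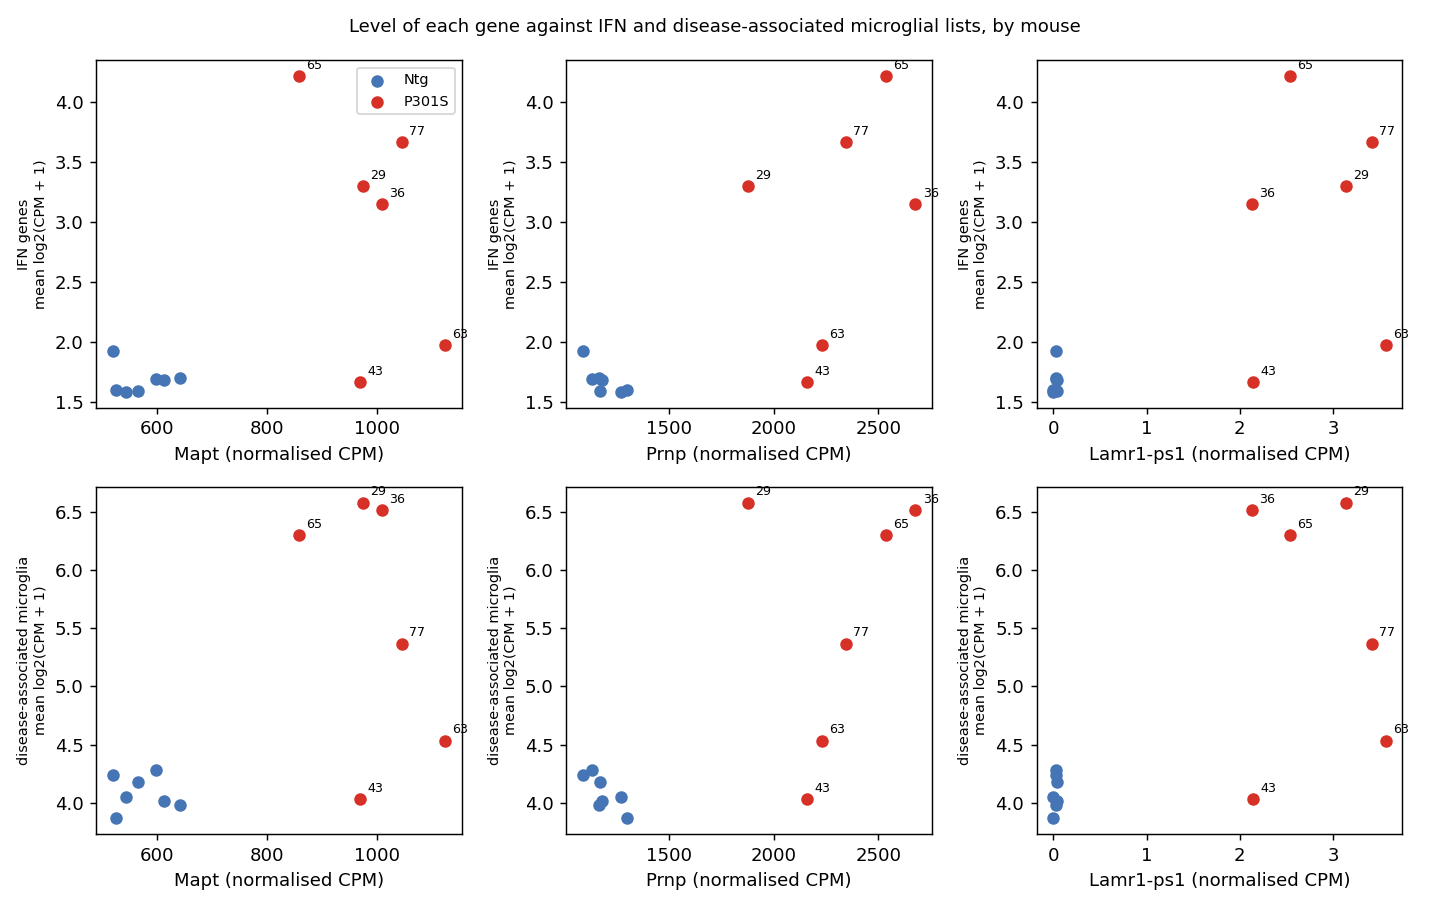
Mean log2(CPM + 1) of the IFN genes (upper row) and of disease-associated microglial markers (lower row) against the normalised CPM of Mapt, Prnp and Lamr1-ps1, with 1 point for each of 7 Ntg and 6 P301S mice. Mice 43 and 63 lie with the P301S mice on the horizontal axis and at or near the Ntg range on the vertical axis.

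In the 7 Ntg mice, which carry no tau transgene by their labels, 15 relations were computed for Mapt and Prnp. Prnp was lower in mice with more oligodendrocyte marker RNA (Pearson's r = -0.89, exact permutation p = 0.0147, adjusted p = 0.173; rho = -0.96, exact permutation p = 0.00278, adjusted p = 0.0417), which passed the correction by rank only. Without the 2 mice farthest from the Prnp median, r was -0.96. The same relation was not seen across the 6 P301S mice (r = 0.02, rho = -0.09, exact permutation p = 0.961 and 0.919). Prnp had an unadjusted p under 0.05 by Pearson's r with 3 further lists, the IFN genes (r = -0.79), disease-associated microglia (-0.78) and reactive astrocytes (-0.77), and none of these passed (adjusted p = 0.173 for each by exact permutation). Mapt and the neuronal markers had r = 0.70 (rho = 0.68, exact permutation p = 0.0839 and 0.110, adjusted p = 0.252 and 0.329; 0.35 without the 2 farthest mice). Depth of the libraries and tissue makeup are shared by such points, and their part was not tested.

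Sex was not used to choose the 3 genes. Lamr1-ps1 was 3.14, 3.56 and 3.41 CPM in the 3 P301S males and 2.13, 2.14 and 2.54 CPM in the 3 P301S females, so the sexes did not overlap. The log2 difference of females from males was -0.57 (SE 0.26, interval -1.09 to -0.05), with an unadjusted p of 0.0468 and an adjusted p of 0.185 (edgeR), and it did not pass. In P301S mice, 30 of the 16453 tested genes (0.182%) differed by sex at an adjusted p under 0.05, and none of the 3 did. At an unadjusted p under 0.05, 4303 of the tested genes differed, so the Lamr1-ps1 value was not rare. The share of genes without overlap between the sexes was not counted. Mapt was 946 ± 78.1 CPM (SD, n = 3) in P301S females and 1048 ± 75.4 CPM (SD, n = 3) in P301S males (log2 difference -0.15, SE 0.10, adjusted p = 0.350). In Ntg mice it was 607 ± 38.7 CPM (SD, n = 3) in females and 546 ± 35.9 CPM (SD, n = 4) in males (0.15, SE 0.09, adjusted p = 0.900; background 0.0365%). The interaction of sex and genotype was -0.30 for Mapt (SE 0.13, interval -0.57 to -0.03, unadjusted p = 0.0425, adjusted p = 0.196, edgeR). For Prnp the interaction of sex and genotype was 0.22 (SE 0.16, interval -0.09 to 0.54, adjusted p = 0.402). Over all genes that interaction passed for 0 genes by edgeR (3897 at an unadjusted p under 0.05) and for 1092 by DESeq2. Prnp in P301S mice was 2457 ± 269 CPM (SD, n = 3) in females and 2150 ± 243 CPM (SD, n = 3) in males (log2 difference 0.19, SE 0.12, adjusted p = 0.306). No sex comparison is given for Lamr1-ps1 in Ntg mice, where it was at the floor.

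By similarity over all 13 hippocampi, the genes closest to Lamr1-ps1 were Mapt (Pearson's r = 0.97), Prnp (0.94), 4930590L14Rik (0.93), Gbp2b (0.91) and Chst14 (0.90). Those closest to Mapt were Lamr1-ps1 (0.97), 4930590L14Rik (0.94), Cenpn (0.92), Prnp (0.92) and Chst14 (0.89). Those closest to Prnp were Cyp4f14 (0.94), Lamr1-ps1 (0.94), Mapt (0.92), Chst14 (0.90) and Gbp2b (0.90). These values carry the gap between genotypes. With group means removed, none of the 3 genes was in the list of another: the closest were Igf1r (0.94), Erc2 (0.91), Mfn2 (0.91), Mycl (0.90) and Tmem114 (0.90) for Mapt, and Ankra2 (0.90), Nap1l3 (0.87), Gm42433 (0.86), Iqcb1 (0.86) and mt-Rnr2 (0.85) for Prnp. Over the 6 P301S mice, Sesn1 (0.99), Svil (0.99), E130102H24Rik (0.98), Rexo5 (0.98) and Ttc4 (0.98) were closest to Lamr1-ps1. Each of these lists is the top of 16453 genes, and the r values are descriptions.

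Primary microglia, which carry no tau transgene by their labels, gave the levels of the 3 genes in culture. Lamr1-ps1 had 0 reads in all 18 libraries, which allows a level of up to 0.117 to 0.167 CPM per library, covering counting error only. Gbp2b had at most 3 reads in any microglial library and 4930590L14Rik had 0. Mapt was near the detection limit at 1 to 18 reads per library. Prnp was read well, at 750 to 1179 reads per library. Summed over their list, homeostatic microglial markers reached 2159 to 3695 CPM and neuronal markers 12.6 to 26.8 CPM in these libraries. Markers of other cell types were also read, endothelial at 20.6 to 277 CPM and oligodendrocyte at 70.6 to 230 CPM. Cgas itself was 23.2 ± 4.21 CPM (SD, n = 3) in Cgas+/+ and 4.93 ± 0.748 CPM (SD, n = 3) in Cgas-/- cells with vehicle.

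Prnp rose with HT-DNA in Cgas+/+ microglia. It was 47.2, 40.8 and 43.6 CPM with vehicle and 61.5, 63.5 and 64.2 CPM with HT-DNA, with no overlap (log2 fold change 0.53, SE 0.06, adjusted p = 8.07e-08, edgeR), under the fold change of 1 that a call required. At any fold change, 47.4% of tested genes passed in this comparison, and 8.08% were called. The share of tested genes without overlap between these treatments was not counted. In Cgas-/- microglia Prnp was 41.9, 43.3 and 37.3 CPM with vehicle and 43.5, 44.4 and 41.0 CPM with HT-DNA (log2 fold change 0.08, SE 0.07, interval -0.06 to 0.21, adjusted p = 0.711; 0.0219% of tested genes were called). The interaction of HT-DNA with genotype was -0.45 (SE 0.09, adjusted p = 0.000293), which 34.0% of tested genes also passed. Tau fibrils gave Prnp log2 fold changes of 0.04 (interval -0.09 to 0.17, adjusted p = 0.719) in Cgas+/+ and 0.07 (interval -0.06 to 0.20, adjusted p = 0.533) in Cgas-/- cells, and the interaction was 0.03 (adjusted p = 0.895), where 3.41%, 2.73% and 6.91% of tested genes were called in turn.

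Mapt was lower in Cgas-/- than in Cgas+/+ microglia with vehicle. The libraries held 11, 5 and 17 reads in Cgas+/+ and 4, 4 and 2 reads in Cgas-/- cells (log2 fold change -1.61, SE 0.60, adjusted p = 0.0259, edgeR), and 9.98% of tested genes were called in that comparison, 52.0% at any fold change. The call was lost without either the third Cgas+/+ or the third Cgas-/- vehicle library (adjusted p = 0.213 and 0.126). Other markers also differed between the genotypes over all treatments. Summed endothelial markers were 86.4 to 277 CPM in Cgas+/+ and 20.6 to 28.2 CPM in Cgas-/- libraries, oligodendrocyte markers 125 to 230 and 70.6 to 82.6 CPM, and homeostatic microglial markers 3361 to 3695 and 2159 to 2678 CPM. Summed neuronal markers were 12.6 to 18.2 and 18.2 to 26.8 CPM, and most of that sum was Eno2, a glycolytic enzyme gene read in many cell types (9.99 to 14.99 and 16.8 to 24.9 CPM). The other 10 neuronal markers were at most 1.32 CPM in any library and had no common direction. The highest Cgas+/+ library exceeded the highest Cgas-/- library for Nefm (1.20 against 0.040 CPM), Nefl (0.916 against 0.084 CPM), Snap25, Rbfox3, Gad1 and Gad2. It was below the highest Cgas-/- library for Syn1 (1.09 against 1.32 CPM), Slc17a7, Syt1 and Thy1. The part of these cells in the Mapt difference was not tested. Mapt did not pass for tau (0.55, interval -0.39 to 1.48, adjusted p = 0.436) or HT-DNA (0.27, interval -0.70 to 1.24, adjusted p = 0.684) in Cgas+/+ cells, or for tau (0.10, adjusted p = 0.959) or HT-DNA (-0.49, adjusted p = 0.868) in Cgas-/- cells. At 1 to 18 reads per library, changes within these intervals were not detectable.

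**Figure D5:**
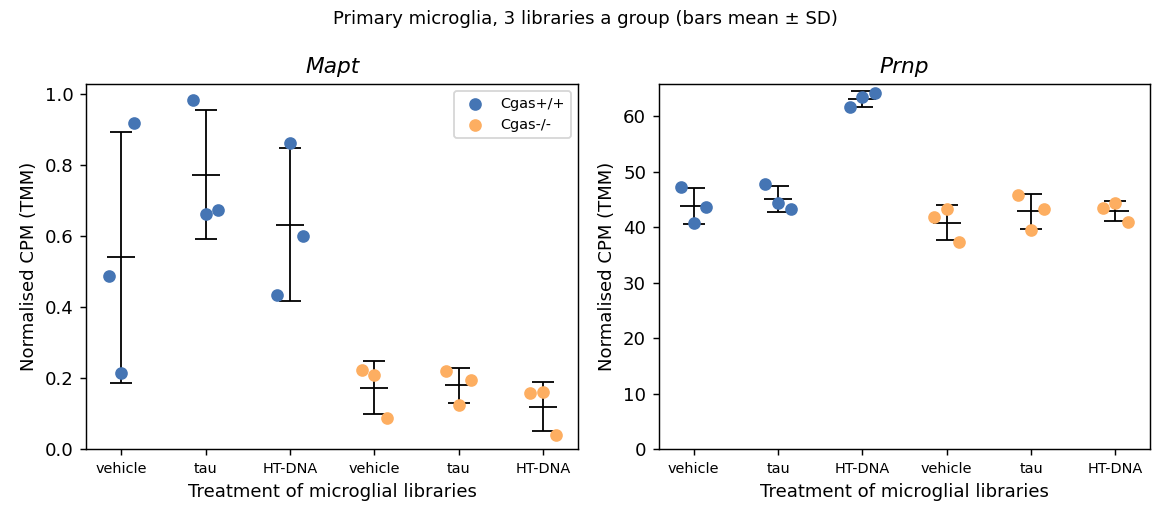
TMM-normalised CPM of Mapt and Prnp in primary microglia, 3 libraries in each of 6 groups, with bars for the mean ± SD. Prnp lies at 61.5 to 64.2 CPM with HT-DNA in Cgas+/+ cells and at 37.3 to 47.7 CPM in every other library, and Mapt is below 1 CPM in each library.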

How the data were processed

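Gene expression was measured by RNA-seq in hippocampi of 7 Ntg and 6 P301S mice and in 18 libraries of primary mouse microglia. The authors deposited raw read counts per Ensembl gene, without normalization, and the sample labels name the GRCm38 build, edgeR and limma. The sample labels describe a 3′ mRNA library kit. The aligner, the counting tool and the use of strand are not given in the sources used here. Groups came from the sample labels, and gene positions and transcripts came from the GENCODE annotation of GRCm38. Gene symbols matched 48349 of 48795 identifiers in hippocampi and 54409 of 54532 in microglia.

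Counts were scaled by TMM and filtered with filterByExpr in edgeR 4.0.16 (R 4.3.3), which left 16453 genes in hippocampi and 13675 in microglia. The quasi-likelihood test was fitted to each whole table, and p-values were adjusted by the Benjamini-Hochberg method over all genes tested. Calls required an adjusted p under 0.05 together with a minimum log2 fold change, which was 0.5 for hippocampi, 1 for microglia and none for interactions or sex. Intervals are 2 standard errors to each side. A group in which every library had 3 counts or fewer was treated as at the floor. Levels are TMM-normalised CPM, and list levels are means of log2(CPM + 1). Relations across mice were tested by exact two-sided permutation (Python 3.11.15, SciPy 1.17.1). The Lamr1-ps1 and Rpsa transcripts were aligned with Biopython 1.88. The edgeR fits were tested on simulated data. DESeq2 1.42.0, RLE scaling, no filter, sex and neuron marker covariates, a replicate block and the removal of each library were tried as alternatives.

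Mapt, Prnp and Lamr1-ps1 were chosen on the comparison of P301S with Ntg hippocampi, and the gene lists were drawn up with earlier results of these data known. The genes named beside them follow a written rule: per list up to 4 genes with the smallest p, plus Rpsa, Prnd and Sprn; the 5 annotated genes on each side; genes with 3 counts or fewer in every Ntg mouse and 10 or more in every P301S mouse; the 5 genes most similar by correlation; and the Rpsa copies. Gbp2, Gbp3, Gbp5, Gbp7, Adam33, Lrrn4 and Cgas fall outside this rule and were added after their values were seen.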

Additional observations from a re-analysis of the deposited data

Results flagged for a closer look

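Among 19 groups of mouse values checked for an isolated highest or lowest sample, 1 stood apart, as chance alone would give for about 1 in 20. It was the mean level of the IFN genes in Ntg mice, where mouse 55 was highest (1.92 log2(CPM + 1)) and its gap to the next mouse was 0.659 of the whole range. Mapt and Prnp in that mouse were 519 and 1086 CPM, the lowest of the Ntg mice for both genes. No level of Mapt, Prnp or Lamr1-ps1 stood apart in this way.

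The response of Prnp to HT-DNA differed between microglial genotypes by the interaction test (log2 difference of -0.449 in Cgas-/- relative to Cgas+/+ cells, adjusted p = 0.000293, edgeR). All 3 Cgas+/+ libraries with HT-DNA were above all 3 with vehicle, whereas the Cgas-/- libraries overlapped. Of all tested genes, 34.0% passed this interaction and 47.4% passed for HT-DNA in Cgas+/+ cells at any fold change, so neither is particular to Prnp. How many genes separated the treatments in the same way was not counted.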

How the results depend on the processing

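The log2 fold changes of Mapt, Prnp and Lamr1-ps1 in P301S hippocampi kept their direction and moved by less than 1 SD under RLE scaling, no filter, DESeq2, a sex covariate and a neuron marker covariate. With each mouse left out they ranged from 0.76 to 0.84 for Mapt, 0.91 to 1.01 for Prnp and 6.41 to 6.73 for Lamr1-ps1, the last a fitted value against near-zero counts. The numbers of genes called in hippocampi were far less stable than these. Against 217 higher and 6 lower, DESeq2 called 531 and 52, a sex covariate 123 and 3, and no filter gave 15 lower. Leaving out 1 mouse gave 14 (without Ntg mouse 35) to 608 (without P301S mouse 43) higher and 0 (without Ntg mouse 35) to 65 (without P301S mouse 77) lower, and the cause was not tested. By sex, edgeR passed 6 genes in Ntg and 30 in P301S mice against 13 and 1741 by DESeq2. No sex test of the 3 genes passed by either tool.

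In microglia, same-numbered libraries deviated together with correlations from -0.12 to 0.15, over 0.1 in 1 of 45 pairs, and 6 of 18 libraries correlated best with their own number, so the numbers were not taken to pair them. With the replicate block, the Prnp change with HT-DNA in Cgas+/+ cells was 0.53 and its interaction -0.45, and no call on Mapt or Prnp changed. The lower Mapt of Cgas-/- cells did not pass without the filter (-1.59, adjusted p = 0.0611) and ranged from -2.0 to -1.03 with 1 library left out, with 2 of 18 such fits not passing. Results that passed no test turned sign in some fits with 1 library left out: Prnp with tau in Cgas+/+ cells (-0.013 to 0.097), Mapt with HT-DNA in Cgas+/+ cells (-0.13 to 0.84), Mapt with tau in Cgas-/- cells (-0.25 to 0.31) and the interaction of tau for Prnp (-0.030 to 0.089). The genes called with HT-DNA in Cgas-/- cells were 3, against 25 without the filter and 5 by DESeq2 (0 to 8 with 1 library left out), and the tau interaction passed for 945 genes, against 589 without the third Cgas+/+ tau library.

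No relation across P301S mice passed the correction under any alternative, but some r values turned sign. Weak values did so under RLE scaling (Mapt with neurons 0.031, Prnp with oligodendrocytes -0.068), linear CPM (Mapt with oligodendrocytes 0.14 and neurons 0.045, Prnp with oligodendrocytes -0.037, Lamr1-ps1 with reactive astrocytes -0.092) and a pseudocount of 0.1 (Lamr1-ps1 with homeostatic microglia 0.0030). Dividing by the neuron markers also turned the sign of the larger negative r values of Mapt. Mapt then had r = 0.089 with IFN genes (-0.55 before), 0.14 with disease-associated microglia (-0.44) and 0.038 with homeostatic microglia (-0.56). It had 0.46 with reactive astrocytes (-0.19), 0.061 with astrocytes (-0.42) and 0.52 with oligodendrocytes (-0.20). Lamr1-ps1 had 0.20 with disease-associated microglia (-0.08 before), 0.24 with homeostatic microglia (-0.01) and 0.053 with astrocytes (-0.20).

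Relations rested on 6 P301S mice and microglial Mapt on 1 to 18 reads per library, which limits the precision of both. DESeq2 gave no adjusted p for Mapt with HT-DNA in Cgas-/- cells or for its tau interaction. It called 13 of 15 markers of disease-associated microglia in P301S hippocampi, against 7 by edgeR. Over all tested genes, DESeq2 called 531 higher there and edgeR 217.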
